A study of Mus musculus with 12 samples.

Results

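The ESC lines WT #1 and WT #3, which stably express WT Ring1B, were profiled on arrays before and after 4-hydroxytamoxifen (OHT), and the genes that moved in both lines are described here. The members are the 4 arrays that the labels assign to WT Ring1B, 2 lines out of 6 and 4 arrays out of 12. Each line gave 1 array before OHT (OHT-) and 1 array on day 2 of a treatment with 800 nM OHT for 24 h (OHT+). All 6 lines are Ring1A(-/-);Ring1B(fl/fl);Rosa26::CreERT2 ESCs on a 129/B6 hybrid background, so Ring1A was missing in every sample, controls included, and OHT removed the endogenous Ring1B. The other lines carried an empty vector (mock, 1 line) or the catalytic mutants Ring1B (I53S) (lines #1 and #4) and Ring1B (I53A) (line #1). The constructs were 3xFlag-tagged cDNAs under the CAG promoter in drug-selected lines. Before OHT, the WT and mutant lines thus held endogenous Ring1B beside the construct, and the mock line held endogenous Ring1B alone. Cells were grown on irradiated fibroblast feeders or on gelatin, and the labels do not say which surface each sample had. No group held OHT-treated cells without CreERT2 or without the floxed alleles. The effects of OHT, of Cre activity and of 2 days of culture therefore cannot be told apart in these arrays, and neither can the loss of endogenous Ring1B.

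Ring1B, encoded by *Rnf2*, and Ring1A are the RING subunits of Polycomb repressive complex 1, which attaches ubiquitin to histone H2A and keeps developmental regulators silent in ESCs. CreERT2 is a recombinase fused to an oestrogen receptor domain that moves into the nucleus when it binds OHT, and Cre can also cut cryptic loxP-like sites and so damage DNA. OHT itself is a ligand of oestrogen receptors and a cationic amphiphilic drug, a class known to disturb cholesterol metabolism and lysosomes.

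The array signal is a log2 value per gene, so a difference of 1 is a doubling. Array medians as deposited ran from 4.76 to 5.19 in the WT lines and from 4.66 to 5.67 elsewhere, and the arrays were set to 1 distribution before the comparison. The number of arrays, 1 per line and time, limits the precision, and nothing says that a second culture of any line was measured, so p-values describe the spread between these lines. *Rnf2* read 7.27 before and 7.32 after OHT in WT #1 and 7.39 and 7.16 in WT #3. Its signal in the other lines lay between 7.06 and 7.58, and the groups overlapped. *Ring1* read 6.27 and 6.49 in WT #1 and 5.73 and 5.99 in WT #3, although the cells are Ring1A(-/-). Whether these probe sets fall inside the deleted exons could not be settled, so neither gene checks the labels. The ESC markers *Pou5f1*, *Nanog*, *Sox2* and *Zfp42* read between 12.03 and 12.87 on the 4 WT arrays. Of 23 measured fibroblast markers, 9 (39.1%) were higher and 4 (17.4%) were lower on the OHT+ array of both WT lines. The shares over all genes were 27.2% and 25.5%, and the list medians were 0.02 and 0.08. In these bulk samples, fewer cells of a type and less RNA per cell cannot be told apart.

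Expression of most genes differed little between the 2 arrays of a WT line. The change lay within 0.5 (log2) for 86.3% of 16432 genes in WT #1 and 89.1% in WT #3, against 74.9% in the mock line and 80.4% to 83.0% in the mutant lines. The SD of the change over genes was 0.35 for WT #1 and 0.32 for WT #3, while it was 0.51 for the mock line and 0.41 to 0.44 for the mutants. No gene passed the test for an OHT change in the WT lines (limma, Benjamini-Hochberg adjusted over all genes, lowest adjusted p = 0.364), while 730 genes (4.44% of all) were higher and 520 (3.16%) lower at an unadjusted p under 0.05. On simulated data, the same fit recovered 49 of 100 genes changed by 1 and 83 of 100 changed by 2. The simulation drew independent noise with each gene's fitted SD, so these rates need not hold for the arrays. In the arrays, *Rab32* changed by 1.35 ± 0.14 in the WT lines and was not called (limma adjusted p = 0.449).

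The 2 WT lines had few changes in common. A change over 0.5 was seen in both lines for 181 genes upwards (1.1% of all) and 134 downwards (0.815%), while 228 genes passed 0.5 in opposite directions. Among the 8216 genes whose mean WT signal was above the median gene, 21 went up and 8 went down in both lines by over 0.5, and 5 did so in opposite directions. Below that median, 160 went up and 126 went down in both lines, against 223 in opposite directions. Same-direction genes thus outnumbered opposite ones most clearly at higher signals. Over all genes, the changes of WT #1 and WT #3 correlated at r = 0.07 (0.18 above the median signal, 0.04 below it), a description across 16432 genes that share 2 lines and 4 arrays. The mock and mutant lines correlated with each other at 0.48 to 0.54 in the same measure. Each WT line correlated with the mock and mutant lines at 0.11 to 0.17, above the value between the 2 WT lines.

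**Figure D1:**
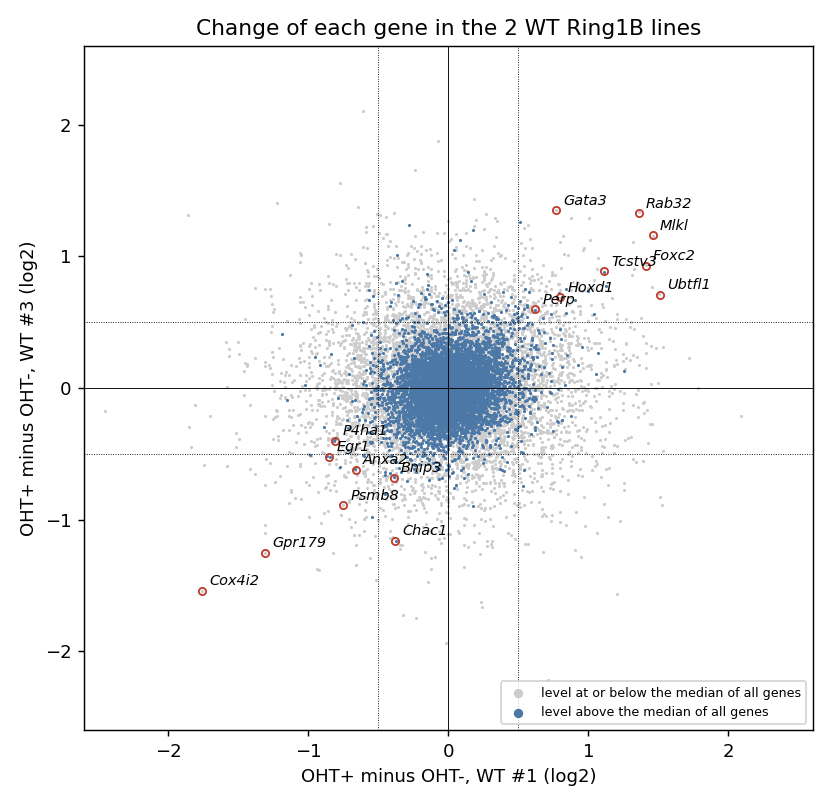
The OHT+ minus OHT- difference of each gene in WT #1 (x axis, log2) is plotted against WT #3 (y axis, log2), with genes above the median signal in blue, the others in grey, and dotted lines at 0.5. Most genes lie near 0, *Rab32* and *Mlkl* stand at the upper right, *Cox4i2* and *Gpr179* at the lower left, and 1 gene lies outside the limits of 2.6.

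The largest differences upwards shared by the WT lines were those of *Rab32* and *Mlkl*, which were higher after OHT in every line. *Rab32* encodes a small GTPase of lysosome-related organelles. Its signal went from 3.48 to 4.84 in WT #1 and from 4.30 to 5.64 in WT #3, a difference of 1.36 and 1.33. It was 1.08 to 1.57 higher after OHT in the other lines. The mean change in the 2 WT lines was 1.35 ± 0.14 (limma SE, with the variance pooled over the lines of all classes). The difference from the mutant lines was 0.00 ± 0.19 (limma adjusted p = 0.996). With a single OHT effect over all 6 lines, *Rab32* rose by 1.32 ± 0.08 (limma adjusted p = 0.00394). *Mlkl*, the effector of necroptotic cell death, went from 3.10 to 4.55 in WT #1 and from 4.03 to 5.18 in WT #3. It rose by 1.28 ± 0.10 over the 6 lines (limma adjusted p = 0.0126). Both genes rest on 1 probe set each, and their lowest OHT- signals were those of the WT lines. The OHT- signals of WT #1 lay below 3.94, the signal that a probe set had to pass on at least 1 array, so the size of these differences is uncertain at the low end. For *Rab32*, the OHT+ level of WT #1 stayed below the OHT- level of the mock line, 5.17.

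Over the 6 lines, 179 genes rose (1.09% of all) and 42 fell (0.256%), all of them with the same sign in each line. In the WT lines, the median change of the risers was 0.54 and 0.49, and that of the fallers -0.41 and -0.39. A change over 0.5 in each of the 6 lines was found for 35 genes upwards, of which 34 were called, and 2 downwards, both called. With the values as deposited, without a common distribution, 248 rose and 160 fell, and the median gene changed by -0.12. The count depends on single lines. Without WT #1 or WT #3 it was 834 and 615 genes, and without the mock, I53S #1, I53S #4 or I53A #1 line it was 1, 2, 1 and 2, with *Rab32* called in each case. With no replicate block it was 7 genes, without *Rab32* (limma adjusted p = 0.0899).

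Besides *Rab32* and *Mlkl*, the 35 genes held developmental transcription factors, structural genes and a few metabolic genes. *Foxc2*, a forkhead factor of mesoderm, went from 3.54 to 4.96 in WT #1 and from 4.56 to 5.49 in WT #3. *Gata3*, a factor of trophectoderm and T cells, went from 4.73 to 5.50 and from 3.60 to 4.95. *Foxa1*, a pioneer factor of endoderm, went from 5.90 to 7.02 and from 6.27 to 7.05. *Foxc2* and *Foxa1* went up by more in the lines without WT Ring1B, by 1.62 to 2.17 and by 1.17 to 2.38. *Gata3* rose by 1.29 to 2.26 there, a range that overlaps its changes of 0.77 and 1.35 in WT #1 and WT #3. For these 3 genes the difference from the mutant lines was not called (limma adjusted p from 0.328 to 0.493). *Dlx2*, *En2*, *Tbx4*, *Hoxd1* and *Hoxd9*, also regulators of the body plan, were 0.54 to 0.97 higher in the WT lines. Cytoskeletal and matrix genes of the set were *Nexn* (0.70 and 0.77), *Pdlim3* (0.53 and 0.57), *Myh6* (1.00 and 0.76) and *Col11a1* (0.90 and 0.53). *Shc4*, an adaptor of receptor tyrosine kinases, was higher by 0.66 and 0.80, and *Id2*, an inhibitor of helix-loop-helix factors, by 0.52 and 0.55.

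*Egr1*, an immediate early transcription factor induced by growth factor signalling, was lower by over 0.5 in every line, as was *Gm3134*. Its signal went from 8.12 to 7.28 in WT #1 and from 7.49 to 6.96 in WT #3. The change was -1.37 to -2.11 in the other lines, and over the 6 lines *Egr1* fell, with a change of -1.38 ± 0.21 (limma adjusted p = 0.0429). Of 21 measured immediate early genes and targets of serum response factor, 8 were higher and 4 lower in both WT lines (38.1% and 19%). The shares over all genes were 27.2% and 25.5%. *Actg2*, a smooth muscle actin of that list, was higher by 0.72 and 0.81.

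**Figure D2:**
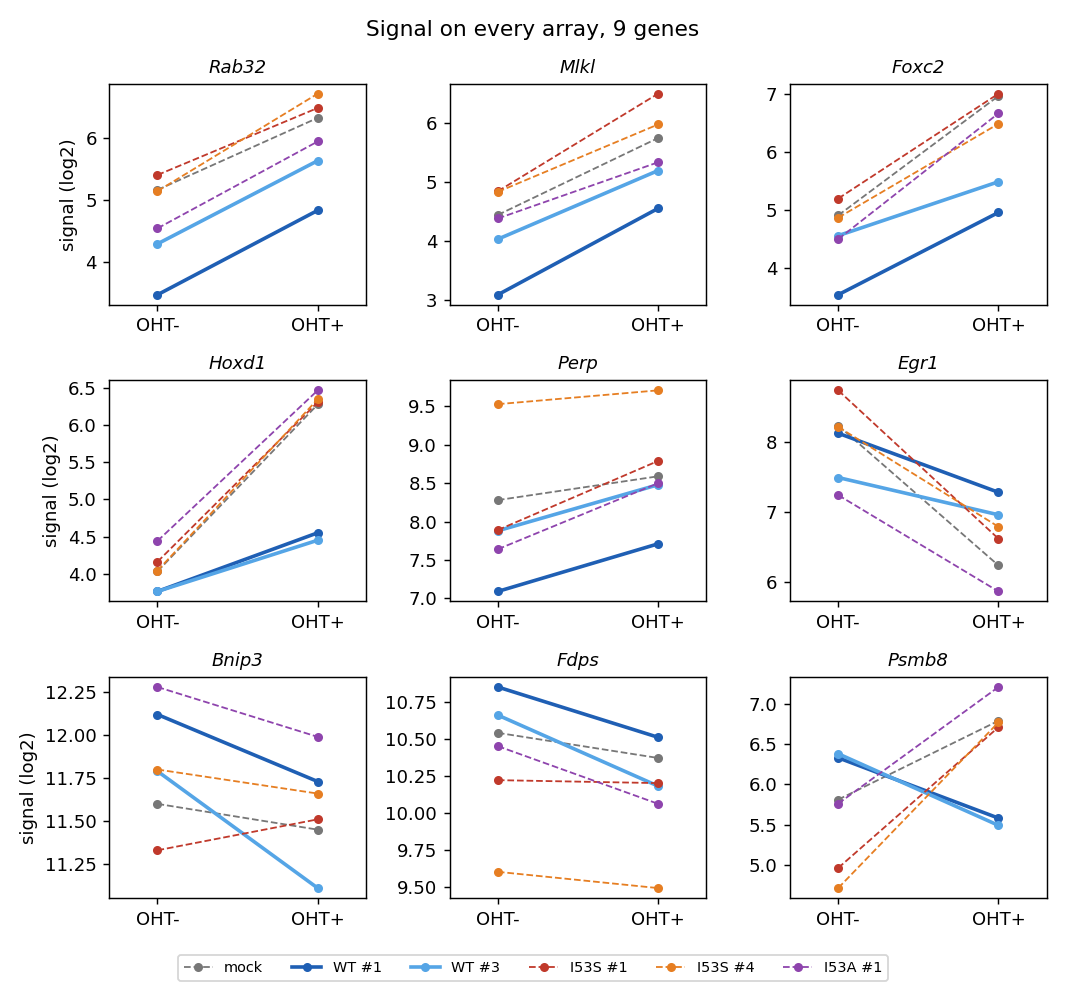
Signal (y axis, log2) before and after OHT for 9 genes, with 1 line per cell line and WT lines drawn solid. *Rab32*, *Mlkl* and *Foxc2* were higher and *Egr1* lower after OHT in all 6 lines, the *Hoxd1* change was 0.69 to 0.80 in the WT lines against 2.04 to 2.32, and *Psmb8* was lower in both WT lines and higher in the other 4.

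The promoters of 4 of these genes are shown, because genes with few and with many CpG pairs, in which many Polycomb target promoters are rich, shared the rise. Each window holds 300 bases around the RefSeq start in GRCm38.p6, most of them upstream, and CpG pairs are in capitals. *Rab32* (chr10:10558158-10558457, minus strand) has 10 and *Mlkl* (chr8:111338156-111338455, minus strand) has 7, while *Hoxd1* (chr2:74762730-74763029, plus strand) has 29 and *Gata3* (chr2:9878551-9878850, minus strand) has 22.
Rab32: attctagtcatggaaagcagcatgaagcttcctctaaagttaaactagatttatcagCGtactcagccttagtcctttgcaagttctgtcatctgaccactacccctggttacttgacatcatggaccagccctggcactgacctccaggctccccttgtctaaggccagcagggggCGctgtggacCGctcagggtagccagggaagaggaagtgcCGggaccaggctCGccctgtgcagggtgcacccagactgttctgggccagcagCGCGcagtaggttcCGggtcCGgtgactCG
Mlkl: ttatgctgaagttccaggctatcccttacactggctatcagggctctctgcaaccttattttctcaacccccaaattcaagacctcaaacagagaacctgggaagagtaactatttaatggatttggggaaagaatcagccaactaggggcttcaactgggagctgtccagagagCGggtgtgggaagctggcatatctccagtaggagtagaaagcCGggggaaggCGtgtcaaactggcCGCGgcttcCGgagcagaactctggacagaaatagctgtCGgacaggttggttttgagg
Hoxd1: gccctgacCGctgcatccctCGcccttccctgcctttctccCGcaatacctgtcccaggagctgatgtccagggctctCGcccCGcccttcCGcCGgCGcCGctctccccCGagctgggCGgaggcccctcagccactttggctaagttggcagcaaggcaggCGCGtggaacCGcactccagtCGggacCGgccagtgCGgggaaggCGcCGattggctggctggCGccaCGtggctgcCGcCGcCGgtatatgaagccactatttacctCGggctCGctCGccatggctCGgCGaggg
Gata3: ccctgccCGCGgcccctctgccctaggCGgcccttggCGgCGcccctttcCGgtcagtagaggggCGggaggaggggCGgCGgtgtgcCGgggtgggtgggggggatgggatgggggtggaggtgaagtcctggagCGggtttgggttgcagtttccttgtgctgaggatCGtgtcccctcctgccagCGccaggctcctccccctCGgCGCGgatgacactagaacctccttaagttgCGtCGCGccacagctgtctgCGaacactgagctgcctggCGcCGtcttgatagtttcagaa
Over the 28 of the 35 genes with a window in the table the median was 19.5 CpG pairs, next to 19 over 13107 of the genes tested.

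Genes that rose without WT Ring1B had medians a little above 0 in each WT line. In the 4 lines without WT Ring1B, 1171 genes rose (7.13% of all) and 487 fell (2.96%), as called by limma on those 8 arrays alone. The balance of the directions depends on the scaling: with the values as deposited, where the median gene changed by -0.19 in these lines, 705 rose and 1388 fell. The genes that rose there had a median change of 0.76, and of 0.14 in WT #1 and 0.17 in WT #3. Of them, 578 (49.4%) were higher in both WT lines, against 27.2% of all genes, and 128 (10.9%) were lower in both. A rise over 0.5 in both WT lines was seen for 53 of the 1171, against 181 of all 16432 genes (1.1%). At the median gene, the WT change was 18.5% of the rise there. The genes that fell there had a median of -0.55, and of -0.07 and -0.08 in the WT lines, where 221 (45.4%) were lower in both, against 25.5% of all genes.

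**Figure D3:**
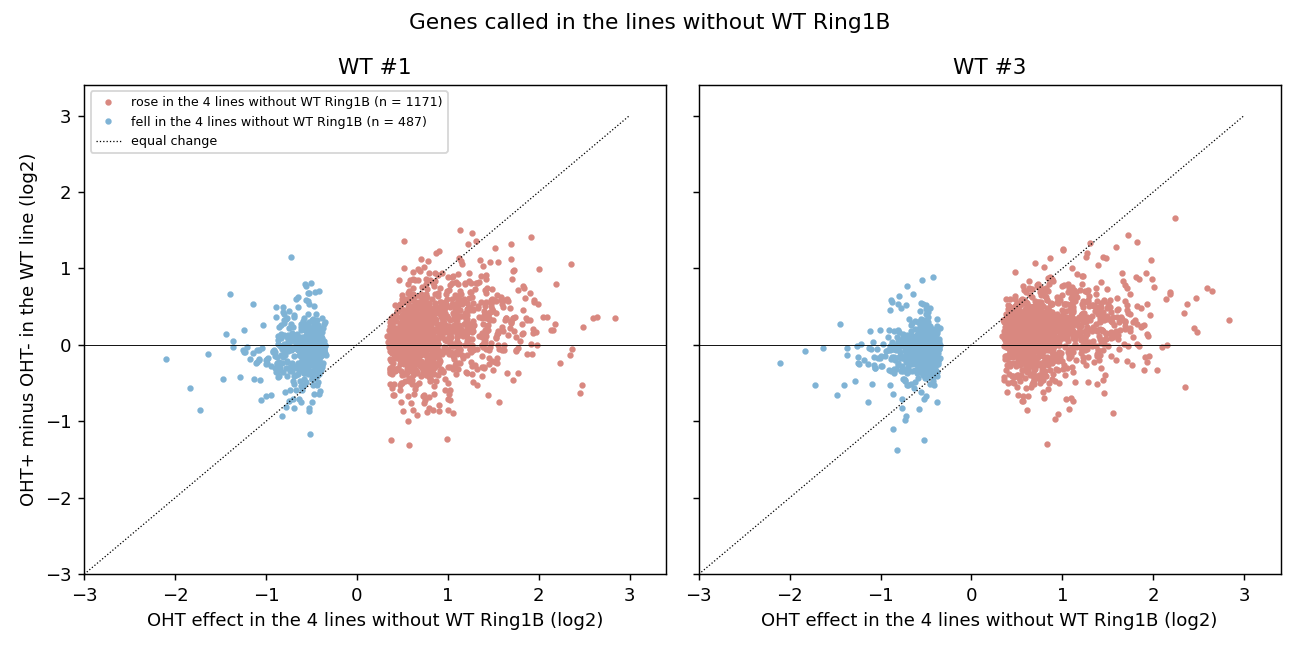
For the 1171 genes that rose (red) and the 487 that fell (blue) in the lines without WT Ring1B, the effect there (x axis, log2) is plotted against the change in WT #1 (left) and WT #3 (right; y axis, log2). The points lie close to the horizontal line at 0 and far from the dotted line of equal change, with a slight shift upwards for the risers.

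The WT change of these genes differed from gene to gene. *Hoxd1* went from 3.75 to 4.55 in WT #1 and from 3.76 to 4.45 in WT #3, while it was 2.04 to 2.32 higher in the other 4 lines. The change in the WT lines was 0.74 ± 0.12 and the difference from the mutant lines -1.43 ± 0.15 (limma adjusted p = 0.088). *Hoxd9* was higher by 0.54 and 0.86 in the WT lines. *Hoxd8*, a neighbour of the same cluster, read 4.87 and 4.79 in WT #1 and 4.58 and 4.80 in WT #3. It was 1.33 to 2.49 higher elsewhere. Of 30 measured Hox genes, 11 were higher and 4 lower in both WT lines (36.7% and 13.3%, against 27.2% and 25.5% of all genes), with medians of 0.03 and 0.15 next to 1.44 in the mock line and 0.35 to 0.60 in the mutant lines. Among 107 other transcription factors of development, OHT+ was above OHT- in both WT lines for 37 (34.6%) and below it for 22 (20.6%). The shares over all genes were 27.2% and 25.5%, and the list medians were 0.00 and 0.13. Of the 107, 9 were higher and 2 lower by over 0.5 in both WT lines, against 1.1% and 0.815% of all genes. At an unadjusted p under 0.05 (limma), 16 were higher and 4 lower, against 4.44% and 3.16% of all genes.

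Some strong rises of the other lines were named because their WT changes were nearest 0, or for a low p of the difference. Their small WT changes thus follow from the choice. *Tlcd4*, a membrane protein gene, read 3.04 and 3.23 in WT #1 and 3.21 and 3.21 in WT #3, and it was 2.02 to 2.24 higher in the other lines. *Sycp2*, a component of the meiotic synaptonemal complex, read 3.42 and 3.42, and 4.20 and 4.04. *Tlcd4* passed the filter signal of 3.94 only on OHT+ arrays of the other lines, and *Sycp2* lay below it in WT #1. A level signal there may lie at the low end of the arrays. *Crabp1*, which binds retinoic acid in the cytosol, was higher by 0.21 and 0.14 in the WT lines and by 1.64 to 2.36 elsewhere. *Cdkn1c*, an imprinted inhibitor of the cell cycle, changed by -0.07 and 0.18, against 1.52 to 2.00 elsewhere. The difference between WT and mutant lines was called for no gene (limma, lowest adjusted p = 0.088), with 2066 genes at an unadjusted p under 0.05 (5.0% higher in the WT lines, 7.58% lower). With trended and robust priors 272 genes were called, *Hoxd1* among them (adjusted p = 0.0276).

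Several Polycomb targets, named here because they were also assayed by RT-PCR, had no shared direction in the WT lines. *Hoxa9* changed by 0.24 and -0.19, *Hoxb13* by 0.00 and -0.06, *Hoxd11* by -0.26 and 0.47 and *Pax3* by -0.64 and 0.12. *Zic1*, a zinc finger factor of the neural plate, was higher by 0.36 and 0.32, next to 2.32 to 3.76 in the other lines. *Pax9*, a factor of pharyngeal and tooth development, was lower in both WT lines, from 6.17 to 5.68 and from 6.38 to 5.67. The differentiation markers *Kdr*, *Gata6*, *Hnf4a* and *Cdx2* changed by between -0.69 and 0.34.

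Genes of the totipotent-like state, which a small fraction of ESCs enters and which resembles the embryo at the 2-cell stage, had the highest list medians in the WT lines. Of 11 measured genes, 10 were higher and 0 lower in both WT lines, against 27.2% of all genes, and 5 of 11 were higher at an unadjusted p under 0.05, against 4.44% of all genes. The medians were 0.72 and 0.46, next to 2.12 in the mock line, 1.29 and 0.72 in the I53S lines and 0.52 in the I53A line. *Tcstv3* went from 5.61 to 6.72 in WT #1 and from 5.85 to 6.73 in WT #3. *Ubtfl1* went from 5.33 to 6.83 and from 5.13 to 5.84. *Arg2*, a mitochondrial arginase, went from 6.24 to 7.14 and from 6.44 to 7.11. *Ubtfl1* and *Arg2* were called in the single effect over 6 lines (limma adjusted p = 0.0444 and 0.0402), as were *Pramel6* and *Pramel7*. Many of these genes belong to families of near-identical copies whose probes may share signal, which makes single members uncertain. The counts may for the same reason not rest on separate observations, and only 11 of 20 listed genes were measured.

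Germline genes, many of them silenced by DNA methylation and by a Polycomb complex, had medians above 0 in all 6 lines. Of 27 measured genes, 14 were higher and 4 lower in both WT lines (51.9% and 14.8%, against 27.2% and 25.5% of all genes), with medians of 0.23 and 0.13, next to 0.79 to 1.73 in the other lines. *Sycp1*, a synaptonemal complex protein, went from 7.58 to 8.15 in WT #1 and from 7.58 to 8.31 in WT #3. *Taf7l*, a germ cell subunit of the basal transcription factor TFIID, was higher by 0.51 and 0.38, and *Syce1* by 0.35 and 0.36. *Cpeb1*, which controls translation of stored oocyte mRNA, was lower by 0.37 and 0.26 in the WT lines and 1.43 to 2.13 higher elsewhere.

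DNA damage and p53 target genes were higher in the WT lines as a list, by a small amount. Of 27 measured genes, 17 were higher and 1 lower in both lines, against 27.2% and 25.5% of all genes, with medians of 0.22 and 0.14. Elsewhere its medians were 0.22 in the mock line and 0.05 to 0.10 in the mutant lines. No member was called in the WT lines, and 5 of 27 were higher at an unadjusted p under 0.05, against 4.44% of all genes. *Perp*, an apoptosis effector of p53, went from 7.09 to 7.71 in WT #1 and from 7.88 to 8.48 in WT #3. *Phlda3*, a p53-induced inhibitor of Akt, was higher by 0.21 and 0.38 in the WT lines and by 0.48 to 0.62 in the others. It was the member called over the 6 lines (limma adjusted p = 0.0435). *Polk*, a translesion polymerase, was higher by 0.34 and 0.52, and *Eda2r*, a death receptor, by 0.42 and 0.19.

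Several classical p53 targets differed little. *Cdkn1a*, which encodes the cell cycle inhibitor p21, read 9.90 and 9.95 in WT #1 and 9.76 and 9.83 in WT #3. *Mdm2*, the ligase that degrades p53, was higher by 0.07 and 0.17, and *Aen*, an apoptotic nuclease, changed by -0.01 and -0.03. *Ddit4l*, an inhibitor of mTOR listed with DNA repair, was higher by 0.55 and 0.75 in the WT lines and rose over the 6 lines (limma adjusted p = 0.0402). The DNA repair list had 7 of 24 genes higher and 4 lower in both WT lines (29.2% and 16.7%, against 27.2% and 25.5% of all genes).

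**Figure D4:**
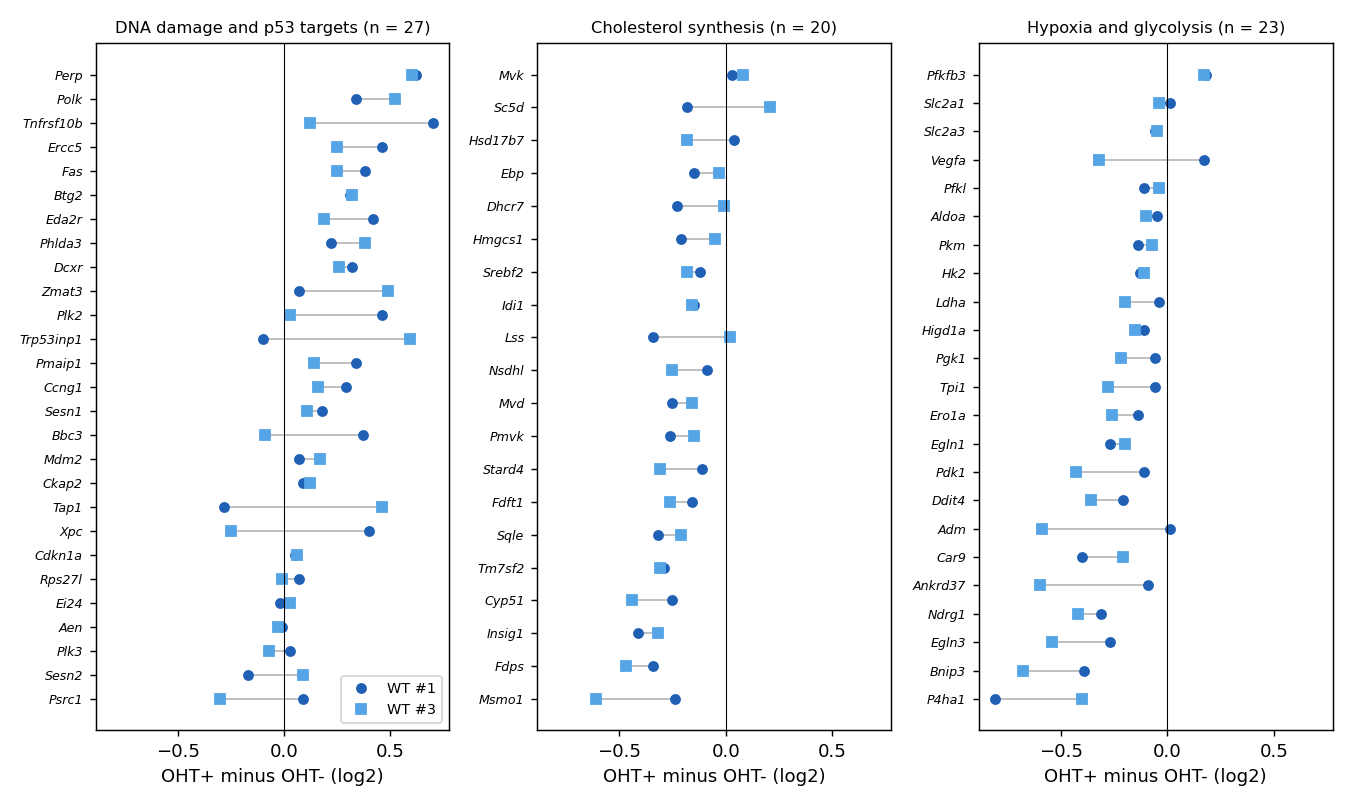
OHT+ minus OHT- (x axis, log2) for every measured gene of 3 lists, with WT #1 as circles and WT #3 as squares joined by a grey bar. Most p53 targets lie above 0, and most cholesterol and hypoxia genes lie below 0, by at most 0.81.

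Cholesterol synthesis genes were lower after OHT in both WT lines. Of 20 measured genes, 16 were lower and 1 higher in both lines, against 25.5% and 27.2% of all genes, with medians of -0.22 and -0.18. *Fdps*, farnesyl diphosphate synthase, went from 10.85 to 10.51 in WT #1 and from 10.66 to 10.18 in WT #3. *Insig1*, which retains the sterol sensor in the endoplasmic reticulum, went from 9.36 to 8.94 and from 9.52 to 9.20. *Msmo1*, *Cyp51* and *Sqle*, which act late in the pathway, were lower by 0.21 to 0.61. The member higher in both lines was *Mvk*, mevalonate kinase, by 0.03 and 0.08. The list was also below 0 in the other lines, at -0.20 in the mock line and -0.06 to -0.21 in the mutant lines. No member was called in the WT lines.

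Hypoxia and glycolysis genes, most of them targets of hypoxia-inducible factor, were lower in the WT lines. Of 23 measured genes, 19 were lower and 1 higher in both WT lines, against 25.5% and 27.2% of all genes, with medians of -0.11 and -0.22. The other lines had medians between -0.06 and 0.08. *P4ha1*, a collagen prolyl hydroxylase, went from 7.14 to 6.33 in WT #1 and from 7.19 to 6.78 in WT #3. *Bnip3*, a mitophagy receptor, went from 12.12 to 11.73 and from 11.79 to 11.11. *Ndrg1*, a stress gene of hypoxic cells, went from 7.75 to 7.44 and from 7.61 to 7.18, while it was 0.05 to 0.75 higher in the other lines. *Egln3* and *Egln1*, oxygen sensors that mark the factor for degradation, were lower by 0.20 to 0.54. The glycolytic enzymes *Ldha*, *Pgk1* and *Aldoa* were lower by 0.04 to 0.22. None was called (limma lowest adjusted p = 0.537 among those named), and the difference of the list between WT and other lines was not tested.

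The promoters of *P4ha1*, *Bnip3* and *Egln3* are shown for 1 form of the core of the hypoxia response element. Its letters, ACGTG on either strand, stand in capitals. Only this form was searched for, and runs of GCGTG in these windows are not marked. The windows are chr10:59323046-59323345 (plus strand), chr7:138909457-138909756 (minus strand) and chr12:54203825-54204124 (minus strand) of RefSeq in GRCm38.p6.
P4ha1: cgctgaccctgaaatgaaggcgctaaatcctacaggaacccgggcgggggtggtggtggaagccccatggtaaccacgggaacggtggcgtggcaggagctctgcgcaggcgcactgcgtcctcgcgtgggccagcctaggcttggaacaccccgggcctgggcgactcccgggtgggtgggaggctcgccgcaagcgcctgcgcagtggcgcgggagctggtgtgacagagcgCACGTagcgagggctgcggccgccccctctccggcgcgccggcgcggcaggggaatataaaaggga
Bnip3: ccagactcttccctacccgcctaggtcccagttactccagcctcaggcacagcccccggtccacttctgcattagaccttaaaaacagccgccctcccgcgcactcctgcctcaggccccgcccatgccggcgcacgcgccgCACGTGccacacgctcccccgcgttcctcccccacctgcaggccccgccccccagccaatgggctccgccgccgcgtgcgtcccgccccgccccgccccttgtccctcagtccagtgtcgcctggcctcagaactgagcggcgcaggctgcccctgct
Egln3: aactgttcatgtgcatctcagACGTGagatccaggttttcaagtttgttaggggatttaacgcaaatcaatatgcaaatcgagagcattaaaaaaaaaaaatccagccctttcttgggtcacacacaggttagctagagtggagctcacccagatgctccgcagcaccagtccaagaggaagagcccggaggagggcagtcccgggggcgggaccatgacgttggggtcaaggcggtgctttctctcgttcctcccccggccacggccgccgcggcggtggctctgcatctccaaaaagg
These letters occurred in 17 of 21 list members with a window (81.0%), next to 27.0% of 13107 genes tested. Because most members are known targets of the factor, this share follows in part from the choice of the list. It is no result about OHT. Windows of the list also held more CpG pairs, with a median of 25 next to 19 over all genes, and the letters contain a CpG pair. In *Bnip3* both strands match at CACGTG, which is also the E-box and holds the core on each strand. The sterol response element CACCCCAC was found in 1 of 16 cholesterol genes (6.25%), *Hmgcs1*, next to 3.88% of all. A match is only a run of letters within 300 bases.

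Genes of the integrated stress response were among those lower in both WT lines. Of 23 measured genes of this and the unfolded protein response, 10 were lower and 4 higher in both WT lines (43.5% and 17.4%, against 25.5% and 27.2% of all genes), with medians of -0.05 and -0.12. *Chac1*, which degrades glutathione, went from 7.80 to 7.43 in WT #1 and from 8.41 to 7.25 in WT #3. *Nupr1*, a stress-induced chromatin protein, was lower by 0.34 and 0.64, and *Ddit3*, the factor CHOP, by 0.28 and 0.61. The chaperones *Hspa5* and *Calr*, which mark the unfolded protein arm, changed by between -0.03 and 0.17.

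Interferon and antigen presentation genes had medians below 0 in the WT lines and above 0 elsewhere. Of 20 measured genes, 10 were lower and 2 higher in both WT lines (against 25.5% and 27.2% of all genes), with medians of -0.16 and -0.08, next to 0.20 to 0.36 in the other 4 lines. *Psmb8*, a subunit of the immunoproteasome, went from 6.33 to 5.58 in WT #1 and from 6.38 to 5.49 in WT #3. It went up by 0.98 to 2.06 in the other lines, and the difference from the mutant lines was -2.57 ± 0.21 (limma adjusted p = 0.088). Without the filter on low signals a further probe set entered, and the change in the WT lines was -0.26. *Psmb9* and *H2-K1*, of the same antigen presentation pathway, changed by between -0.26 and -0.06 in the WT lines and by 0.31 to 1.23 elsewhere. *Gbp2*, a guanylate-binding protein, was lower in all lines, by 0.59 and 0.98 in the WT lines (over the 6 lines, limma adjusted p = 0.0402).

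**Figure D5:**
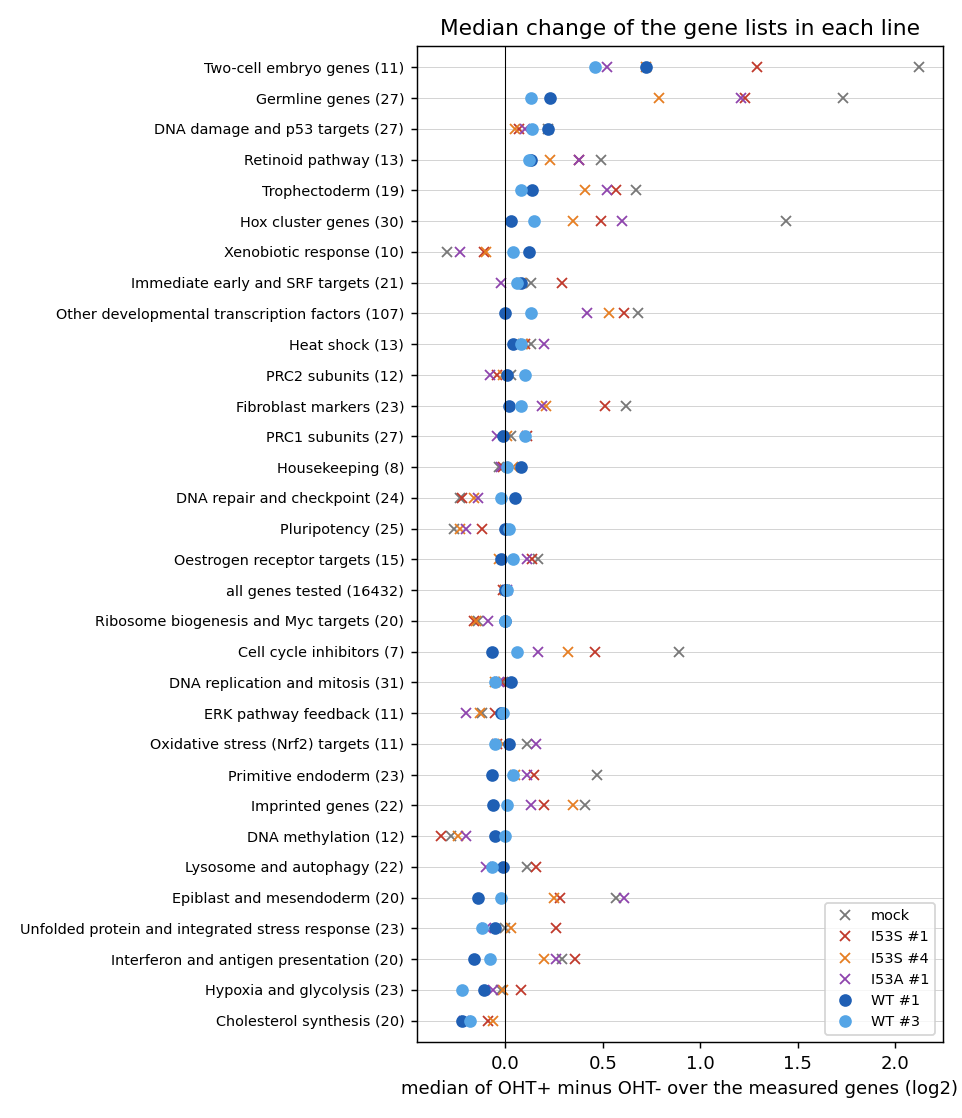
Median OHT+ minus OHT- (x axis, log2) over the measured genes of 31 lists and over all genes, with the number of genes in brackets, WT lines as circles and the other lines as crosses. The WT medians lie between -0.22 and 0.72, with the 2-cell list highest and the cholesterol and hypoxia lists lowest.

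Besides the cholesterol genes, lists of oestrogen receptor targets, the xenobiotic response and lysosomes were counted because OHT is a ligand and a drug. Of 15 measured oestrogen receptor targets, 3 were higher and 5 lower in both WT lines (20% and 33.3%), with medians of -0.02 and 0.04. Over all genes these shares were 27.2% and 25.5%. *Greb1* was higher by 0.50 and 0.21 and also in every other line, while *Igfbp4* was lower by 0.44 and 0.32. Of 10 measured genes of the xenobiotic response, 3 were higher and 1 lower in both WT lines (30% and 10%). The drug efflux pumps *Abcb1a* and *Abcb1b* were higher by 0.17 to 0.33 in the WT lines and lower by 0.03 to 0.76 in the others. Of 22 lysosome and autophagy genes, 6 were higher and 7 lower in both (27.3% and 31.8%), near the shares of all genes. *Tfe3*, a regulator of lysosome genes, was lower by 0.27 in each WT line and fell over the 6 lines (limma adjusted p = 0.0483).

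The pluripotency programme was level in the WT lines. Of 25 measured genes, 6 were higher and 5 lower in both lines (24% and 20%, against 27.2% and 25.5% of all genes). *Pou5f1* read 12.56 and 12.59 in WT #1 and 12.87 and 12.83 in WT #3, *Nanog* 12.49 and 12.58, and 12.55 and 12.57, and *Sox2* 12.18 and 12.08, and 12.03 and 12.10. *Nr0b1*, an orphan nuclear receptor of ESCs, changed by 0.05 and -0.04, while it was lower by 1.23 to 1.49 in the other lines. *Klf4*, a factor of naive pluripotency, was higher by 0.21 and 0.31 in the WT lines and by 0.40 to 1.01 in the others. *Dppa3*, a maternal factor that protects DNA methylation in the zygote, was lower by 0.15 and 0.30 in the WT lines and higher by 0.99 to 1.14 elsewhere (difference from the mutant lines, limma adjusted p = 0.088). Replication and mitosis genes (7 higher and 8 lower of 31, 22.6% and 25.8%) and ribosome biogenesis genes (4 and 4 of 20, 20% each) showed no shared direction either.

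Of 27 PRC1 genes, 9 were higher and 6 lower in both WT lines (33.3% and 22.2%), near the 27.2% and 25.5% of all genes. Of 12 PRC2 genes, 5 were higher and 2 lower (41.7% and 16.7%). *Phc2*, a polyhomeotic subunit of PRC1, was higher by 0.34 and 0.39, and it was 0.85 to 1.25 higher in the other lines (over the 6 lines, limma adjusted p = 0.0461). *Bcorl1* was higher by 0.27 and 0.24 and *Pcgf6*, the subunit of a variant PRC1, was lower by 0.23 and 0.24. In PRC2, the accessory subunits *Epop* (0.69 and 0.34) and *Phf1* (0.39 and 0.62) were higher.

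Further genes differed in both WT lines by more than in most other lines, without passing the test of that difference. *Anxa2*, a membrane-binding annexin, went from 8.19 to 7.52 in WT #1 and from 8.07 to 7.45 in WT #3, with both probe sets lower, and changed by -0.22 to 0.53 in the other lines. *Ddhd2*, a phospholipase, went from 7.67 to 6.80 in WT #1 and was lower by 0.52 in WT #3. *Cox4i2*, a subunit isoform of cytochrome c oxidase, went from 5.40 to 3.65 and from 5.58 to 4.04, the largest shared fall of the WT lines. *Gpr179*, an orphan receptor of retinal bipolar cells, went from 4.66 to 3.35 and from 4.79 to 3.53 and had the lowest p in the WT lines (limma unadjusted p = 2.21e-05, adjusted p = 0.364). Both OHT+ signals of *Gpr179* and that of *Cox4i2* in WT #1 lay below 3.94, the filter signal. Each gene rests on 1 probe set, so the size of these falls is uncertain. *Timm8a2*, a mitochondrial import chaperone, was higher by 0.66 and 0.54 in the WT lines and lower by 0.08 to 1.58 in the others. The difference from the mock line was called for no gene (limma, lowest adjusted p = 0.112, 2360 genes at an unadjusted p under 0.05, 6.22% higher and 8.14% lower in the WT lines, and 453 called with trended and robust priors). Genes such as *Arhgef10l* (-0.56 and 0.67) and *Gm128* (-0.56 and 0.74), with signals above the median gene, differed by as much in opposite directions in WT #1 and WT #3.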

How the data were processed

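RNA of 6 ESC lines was hybridised to Affymetrix mouse genome arrays, 1 before and 1 after OHT per line. Values as deposited are log2, 1 for each probe set and array. Per the labels they came from Affymetrix Expression Console and RMA, whereas the study's supplementary methods name MAS5 with quantile normalization, so the background correction behind the values is not settled. Of 45101 probe sets, 64 controls were left out and 34945 had 1 gene symbol. The 12 arrays were quantile-normalised, 30374 probe sets passed a signal of 3.94 (the 30th percentile) on at least 1 array, which favours low genes that differ between arrays, and probe sets were averaged to 16432 genes. The OHT effect of each class (mock, WT or mutant) was fitted with limma 3.58.1 (R 4.3.3) on all 12 arrays, so the variance was pooled over lines. Each line was a block, since both arrays of a line come from the same cell line (the correlation of the deviations of a line's arrays was 0.27 in WT and 0.36 to 0.43 in the mutants). P-values were Benjamini-Hochberg adjusted over all genes. Further fits compared WT with mutant or mock lines, took the 4 other lines alone, or took 1 effect over 6 lines. The fits were tested on simulated data. Named genes were the largest shared changes (12 each way above the median signal, 6 below), up to 3 members per list, the lowest p per fit, the RT-PCR genes and the rises of the 4 lines that were most and least matched. Other list members were named after their values were seen. The members and lists were chosen with earlier results of these data known. Alternatives varied the scaling, filter, probe set summary, variance prior and block, and left out each line in turn.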

Additional observations from a re-analysis of the deposited data

Results flagged for a closer look

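Some of the 166 named genes were flagged because both WT lines differed one way and every other line the opposite way. Several of them had been named for a low p of the difference from the other lines. How many of all genes tested show this pattern was not counted. No such WT minus mutant difference passed the test (limma adjusted p from 0.088 to 0.51). The difference (log2) was -2.57 for *Psmb8*, -2.05 for *Amn*, -1.96 for *Cpeb1*, -1.43 for *Gpnmb*, a lysosomal glycoprotein, and -1.27 for *Dppa3*. It was -0.82 for *Tm2d1*, -0.74 for *Sox7*, an endoderm and endothelial factor, -0.68 for *Ndrg1*, -0.59 for *Cdkn2c*, a cell cycle inhibitor, and -0.45 for *Gpx2*, a glutathione peroxidase. It was above 0 for *Zfp57*, which maintains imprints (0.85), *Timm8a2* (0.81), *Abcb1b* (0.44), *Abcb1a* (0.43) and *Rrs1*, a ribosome assembly factor (0.26).

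For 3 lists the medians of both WT lines lay on the opposite side of 0 from those of every other line, and these differences were not tested. The median of the mean WT change was 0.04 for the xenobiotic response and -0.09 for interferon and antigen presentation. For the epiblast and mesendoderm list it was 0.07, although the medians of the single lines were -0.14 and -0.02, so the sign of that list depends on how it is summarised.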

How the results depend on the processing

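The test of the OHT change in the WT lines (limma, fitted to all lines) called 0 genes under every alternative that kept both WT lines. These alternatives included a fit to the 4 WT arrays alone. The other counts depended on the processing, and the cause was not tested. The count over the 6 lines, 221 as reported, was 408 with the values as deposited, 454 with arrays centred on their medians, 1150 with a filter on the mean signal, 1585 with trended and robust priors and 7 with no replicate block. It ran from 1 to 834 when lines were left out, and none of the 31 named genes called in it kept the call under every alternative. The block also moved the count in the 4 lines without WT Ring1B, 1658 as reported, which was 906 without it, 2093 with the values as deposited (705 higher and 1388 lower, against 1171 and 487), 2933 with trended and robust priors and 506 to 735 when a line was left out. The WT minus mutant and WT minus mock counts, 0 as reported, were 47 and 17 with the filter on the mean, and 272 and 453 with trended and robust priors. Genes beyond 0.5 in the same direction, 315 as reported, numbered 123 with the filter on the mean, and 9 went beyond 1. The 19 lists with medians of 1 sign in both WT lines were 16 to 20 under the alternatives.

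Of 2121 values of named genes under alternatives, 44 had another sign, in 30 genes, none of them called in the WT lines. With arrays centred on their medians, the WT change was 0.01 for *Hoxb13*, *Pou5f1* and *Sox2*. With each gene read from its brightest probe set it was 0.17 for *Rnf2* and *Esco1*, 0.13 for *Tet1*, 0.06 for *Etv5*, 0.04 for *Bop1*, -0.02 for *Ptx3*, -0.07 for *Fgf5* and *Hnf4a*, -0.08 for *Dcun1d5* and *Npc2*, -0.09 for *Mtf2* and -0.10 for *Chaf1b*. With the filter on the mean it was 0.17 for *Esco1*, 0.02 for *Rnf2*, -0.02 for *Ptx3*, -0.07 for *Npc2* and -0.10 for *Chaf1b*, and with no filter 0.02 for *Gpnmb* and -0.05 for *Tlcd4*. Genes whose WT lines differ in sign turn when a line is left out. The range was -0.56 to 0.67 for *Arhgef10l*, -0.56 to 0.74 for *Gm128*, -0.54 to 0.70 for *Chaf1b*, -0.63 to 0.54 for *1500011B03Rik*, 0.00 to 0.19 for *Tlcd4* and -0.15 to 0.01 for *Sycp2*. It was -0.23 to 0.05 for *Rnf2*, -0.19 to 0.24 for *Hoxa9*, -0.06 to 0.00 for *Hoxb13*, -0.26 to 0.47 for *Hoxd11*, -0.64 to 0.12 for *Pax3*, -0.01 to 0.14 for *Tbx3* and -0.09 to 0.13 for *Ptx3*. It was -0.07 to 0.30 for *Gsn*, -0.16 to 0.31 for *Itga2*, -0.04 to 0.03 for *Pou5f1*, -0.10 to 0.07 for *Sox2*, -0.15 to 0.34 for *Fgf5*, -0.01 to 0.16 for *Hnf4a*, -0.69 to 0.13 for *Cdx2*, -0.07 to 0.18 for *Cdkn1c* and -0.08 to 0.22 for *Hoxd8*. With 1 array per line and time, genes of low signal are the least certain, since changes below the median signal varied more (SD 0.45 and 0.40) than those above it (0.21 and 0.20).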
